A study of Mus musculus with 6 samples.

Results

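In mouse CD4+ T cells kept for 72 h under T helper 1 (Th1) conditions, the expressed Zfp-named zinc finger genes were higher more often than lower with idelalisib, a drug that blocks the phosphoinositide 3-kinase isoform named delta. They were the protein-coding genes whose symbol is Zfp followed by a number, with or without a final letter, and whose level averaged at least 2 CPM over the 6 libraries. CPM is a read count scaled to the total of its library. This rule kept 283 of the 391 protein-coding genes so named, in a table of 54532 genes. The genes were thus chosen by their mean level over both groups, and not by the difference between groups. The genes just inside it were Zfp14, Zfp882 and Zfp458, at 2.02, 2.16 and 2.18 CPM, and those just outside were Zfp213, Zfp69 and Zfp442, at 1.98, 1.97 and 1.97 CPM. Of the 283 genes, 268 were at 2 CPM or more in both groups, and 15 were below 2 CPM in the control group alone. The remaining 108 genes were below the threshold, 24 of them without a single read.

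The idelalisib group held 3 RNA sequencing libraries of splenic CD4+ T cells from C57BL/6 mice that had idelalisib during the culture, and the control group held 3 libraries of such cells without it. Both groups shared the strain, the purification, the Th1 conditions and the time of 72 h. The sources used here do not give the dose of idelalisib, what the control cultures had in its place or the number of animals. The labels call the libraries biological replicates without saying that each came from its own animal, so p-values measure the spread between these samples. Library totals were 13372318 to 16035945 counts with idelalisib and 14879325 to 16770452 counts in controls, so that 1 CPM stood for 13.4 to 16.8 reads. The groups separated on the first principal component (67.9% of the variance), and idelalisib replicate 2 was distant from replicates 1 and 3 of its group on the second (11.8%).

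Most proteins with a Zfp name carry zinc fingers of the C2H2 type, in which a pair of cysteines and a pair of histidines hold a zinc ion, and each finger can contact a few bases of DNA. Many also carry a Krüppel-associated box (KRAB), which recruits the corepressor Trim28 and the histone methyltransferase Setdb1 to silence chromatin, and which is best known for the silencing of endogenous retroviruses. KRAB zinc finger genes arose by repeated duplication and lie side by side in clusters on several mouse chromosomes. A Zfp name covers more than these, since RNA-binding proteins and ubiquitin ligases with a zinc finger share it.

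Fingers were counted in the translated GENCODE M21 coding sequences, where the 283 genes had a median of 10 C2H2 fingers, and Zfp142 had the most at 32. Only 9 genes had no match to the spacing counted, namely Zfp36, Zfp608, Zfp609, Zfp365, Zfp703, Zfp839, Zfp414, Zfp330 and Zfp395. Fingers of another spacing would be missed. A pattern of 9 conserved KRAB positions, with at least 7 matching, was found in 145 of the 283 genes and in 0.539% of other protein-coding genes. A KRAB box that matches fewer positions would be missed, so genes without the pattern can still carry one. The stretches below encode the first finger of the longest tandem run in 6 neighbouring genes, and are shown because their genes lie in the clusters described later and differ in how they changed. All 6 are on the plus strand of GRCm38. They lie at chr8:71889407-71889490 in Zfp709, chr8:71914255-71914338 in Zfp882, chr8:71932332-71932415 in Zfp617 and chr8:71968326-71968409 in Zfp961. The other two are at chr17:21561209-21561292 in Zfp52 and chr17:21722473-21722556 in Zfp760. Capitals mark the codons of the cysteines and histidines that hold the zinc.
Zfp709: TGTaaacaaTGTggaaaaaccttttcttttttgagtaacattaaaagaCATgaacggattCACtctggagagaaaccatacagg
Zfp882: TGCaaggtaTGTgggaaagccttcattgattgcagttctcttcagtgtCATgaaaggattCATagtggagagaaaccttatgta
Zfp617: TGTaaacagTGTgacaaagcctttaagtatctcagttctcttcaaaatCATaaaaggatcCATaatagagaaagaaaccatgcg
Zfp961: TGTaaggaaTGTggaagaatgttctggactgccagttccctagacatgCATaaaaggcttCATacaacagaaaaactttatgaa
Zfp52: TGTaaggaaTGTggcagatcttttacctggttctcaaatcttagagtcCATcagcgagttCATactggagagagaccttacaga
Zfp760: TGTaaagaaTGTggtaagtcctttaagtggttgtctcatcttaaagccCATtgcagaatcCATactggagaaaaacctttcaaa
Over these 84 bases the 6 stretches were 52.4% to 73.8% identical to each other. The closest were Zfp52 and Zfp760, which lie in one cluster on chromosome 17 and changed in opposite directions. Zfp709 had 18 fingers in 1 unbroken run, and Zfp760 had 16, while Zfp52 had 14 fingers of which 10 were in tandem.

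Since zinc finger genes are so alike, a read can match several of them, and how such reads were counted is not given in the sources used here. Of the 50-base words in a gene's transcripts, a median of 1.5% also occurred in another gene, and 34 of the 283 genes exceeded 20%. In 69 genes an exon overlapped a gene on the opposite strand, and the strand setting of the counting is likewise not given. In all, 92 genes met either condition, and values of those named below are marked as uncertain.

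With idelalisib, 97 of the 283 genes were higher (34.3%) and 32 were lower (11.3%), and 154 were not called. Among the 268 genes at 2 CPM or more in both groups, 89 were higher (33.2%) and 32 lower (11.9%), with a median log2 fold change of 0.24. The 15 genes that met the threshold through the idelalisib group alone thus held 8 of the 97 higher calls. Calls rest on edgeR's quasi-likelihood test with adjustment over all 14530 genes tested, at an adjusted p under 0.05. Among all genes tested, 22.2% were higher, 22.4% were lower and 44.6% were called in either direction. Among the 10441 other protein-coding genes at 2 CPM or more, 25.2% were higher and 23.5% were lower, 48.7% in all. The share of the 283 genes called in either direction, 129 genes, was thus near the background, and the split between directions was not. The median log2 fold change of the 283 genes was 0.26, against 0.01 over all genes tested and 0.02 over the other protein-coding genes. In bulk samples, fewer cells of a type and less RNA per cell cannot be told apart.

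The shift was spread over many genes of small difference. The log2 fold change was above 0 in 199 genes and below 0 in 84, with quartiles of -0.05 and 0.56. All 3 idelalisib libraries lay above all 3 control libraries in 125 genes, and below them in 38, where 27.5% and 27.2% of all genes tested did so. A called difference of at least 1 on the log2 scale was seen in 19 higher genes and 1 lower gene, against 11.7% of all genes tested in either direction. Relative to the control mean, the median log2 level of the 283 genes was 0.25, 0.32 and 0.17 in idelalisib replicates 1, 2 and 3. Over all genes tested the same medians were 0.01, 0.00 and 0.02, so each idelalisib library showed the shift. Without idelalisib replicate 2, 95 genes were higher and 37 lower. The calls depended on scaling: with library size alone, 147 genes were higher and 21 lower, which put 87.5% of their calls on the higher side against 75.2% with TMM scaling. For all genes tested these shares were 68.5% and 49.7%. The same change moved the median of all genes to 0.16 and that of the 283 genes to 0.42, and the gap between them was 0.25 under both scalings.

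**Figure D1:**
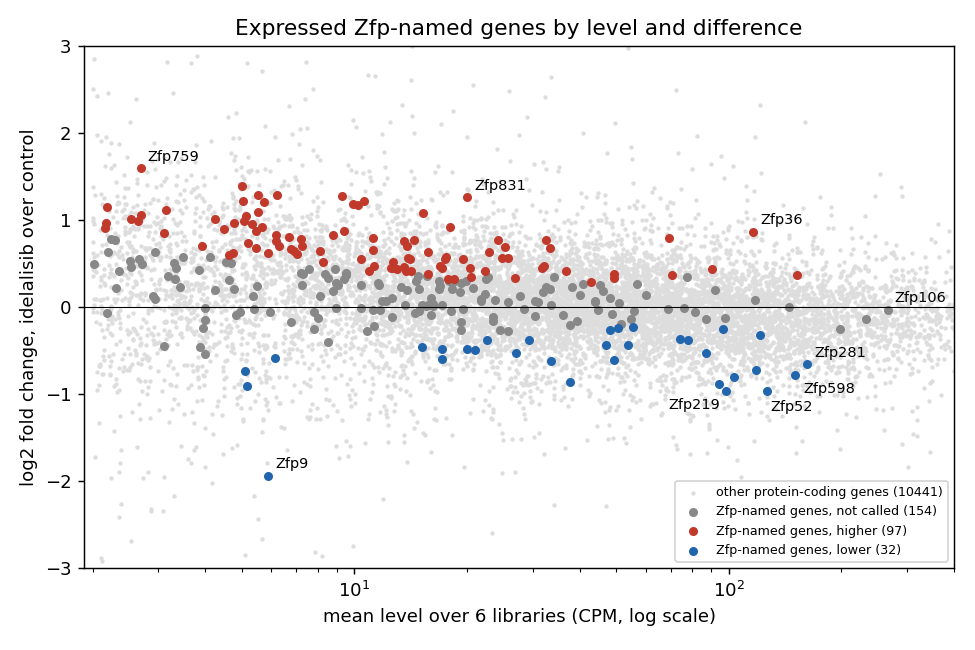
Mean level over 6 libraries in CPM (horizontal, log scale) and log2 fold change, idelalisib over control (vertical), of the 283 Zfp-named genes and of 10441 other protein-coding genes (small light points; genes beyond the axes are not drawn). The 97 higher genes include 60 of the 133 at 5 to 20 CPM, and the 32 lower genes include 15 of the 38 at 50 CPM or more.

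The split of the calls differed between levels. Here levels are means in CPM over the 6 libraries, and the median gene stood at 14.5 CPM. Of the 50 genes at 2 to 5 CPM, 15 were higher and 0 lower in edgeR's test, with 1 lower at an unadjusted p under 0.05 and 0 by DESeq2. The higher share, 30.0%, was near the 29.4% of 963 other protein-coding genes at that level, of which 10.7% were lower. All genes that met the threshold through the idelalisib group alone were at this level, and none met it through the control group alone. The part of the threshold in the split of the 50 was not tested. Of the 133 genes at 5 to 20 CPM, 60 were higher (45.1%) and 7 lower (5.26%), with a median log2 fold change of 0.35. Other protein-coding genes at 5 to 20 CPM were 33.2% higher and 11.8% lower, with a median of 0.20. At 20 to 50 CPM, 17 of the 62 genes were higher (27.4%) and 10 lower (16.1%), with a median of 0.12. Other protein-coding genes there were 26.6% higher and 19.5% lower, near the shares of the 62, with a median of 0.04. At 50 CPM or more the split turned round, with 5 of the 38 genes higher (13.2%) and 15 lower (39.5%) and a median of -0.14. Of 4395 other protein-coding genes at that level, 833 were higher and 1548 lower, with a median of -0.10. This last split rested on the scaling, since with library size alone 9 of the 38 were higher and 9 lower, with a median of 0.02. Without idelalisib replicate 3, 8 were higher and 12 lower, with a median of -0.02. The differences between levels were not tested.

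The summed level of the 283 genes hardly differed between groups. It was 7606, 7908 and 7145 CPM in idelalisib libraries and 7548, 7500 and 7581 CPM in control libraries, where levels per library are CPM with TMM-scaled library sizes. The 145 genes with the KRAB-like pattern summed to 2350, 2380 and 2070 CPM with idelalisib and 2076, 2116 and 2093 CPM in controls. The 138 genes without it summed to 5286 ± 228 CPM with idelalisib and 5448 ± 56.2 CPM in controls (SD, n = 3 each). For the genes with the pattern, the sum of idelalisib replicate 3 lay below all control libraries, so the groups overlapped.

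Genes with the KRAB-like pattern were higher more often than those without. Of the 145, 57 were higher (39.3%) and 11 lower (7.59%), with a median log2 fold change of 0.36. Of the 138 without it, 40 were higher (29.0%) and 21 lower (15.2%), with a median of 0.16. Relative to the control mean, the median log2 level of the 145 genes was 0.36, 0.43 and 0.20 in idelalisib replicates 1 to 3, and that of the 138 was 0.19, 0.18 and 0.09. Each of the 3 libraries was thus higher for the genes with the pattern. KRAB-like genes that have another name showed the same direction: 22 of the 39 at 2 CPM or more were higher (56.4%), and 0 were lower by edgeR, by DESeq2 or at an unadjusted p under 0.05. Their median was 0.62. Other genes with at least 3 C2H2 fingers numbered 137, of which 41 were higher and 35 lower, with a median of 0.06. The 9 Zfp-named genes without a counted C2H2 finger held 4 higher and 2 lower genes. These classes were set side by side and not tested against each other. The 145 and 138 genes also differed in level, with control sums of 2095 and 5448 CPM. Among other protein-coding genes too the split of calls differed between levels, and levels were not matched here. Medians of both KRAB classes stayed above 0 in the 15 other fits, at 0.31 to 0.51 with the pattern and 0.13 to 0.31 without it.

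**Figure D2:**
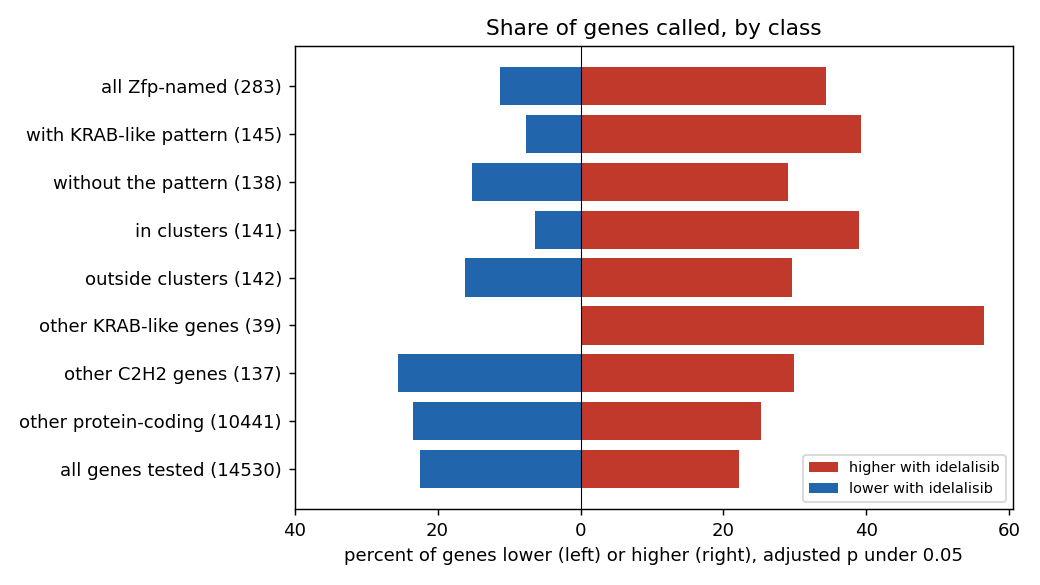
Percent of genes in each class that were higher (right) or lower (left) with idelalisib at an adjusted p under 0.05, with the number of genes in parentheses. The higher share is 39.3% with the KRAB-like pattern, 29.0% without it and 56.4% in the 39 KRAB-like genes of other names, against 22.2% of all genes tested. Levels were not matched between the classes.

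Of the 283 genes, 141 lay in 22 chromosome clusters and 142 lay outside. A cluster was a chain of protein-coding Zfp-named genes with gaps of at most 250 kb, expressed or not, that held at least 3 of the 283 genes. Clusters are called here by their chromosome and a letter in order along it. In clusters, 55 genes were higher (39.0%) and 9 lower (6.38%), with a median log2 fold change of 0.35. Outside clusters, 42 were higher (29.6%) and 23 lower (16.2%), with a median of 0.18. Most clustered genes had the KRAB-like pattern, and the 97 that had it were higher in 44 cases and lower in 7, with a median of 0.44. The 44 clustered genes without it were higher in 11 cases and lower in 2, with a median of 0.25. Outside clusters, the 48 genes with the pattern held 13 higher and 4 lower genes, with a median of 0.25, and the 94 without it held 29 higher and 19 lower, with a median of 0.09. In controls the clustered genes summed to 2139 CPM and those outside to 5404 CPM, and levels were not matched between these classes.

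Genes of other kinds that lie between the clustered Zfp-named genes were also measured. The cluster spans held 31 other protein-coding genes at 2 CPM or more with fewer than 3 C2H2 fingers. Of these, 5 were higher (16.1%) and 14 lower (45.2%), with a median log2 fold change of -0.17. The shares over all genes tested were 22.2% and 22.4%. The cluster spans also held 6 genes of other names with at least 3 fingers. Of the 6, 5 were higher and 0 lower by edgeR, by DESeq2 or at an unadjusted p under 0.05, with a median of 0.67. The 31 genes with fewer than 3 fingers had a median below 0 in every fit run, at -0.25 to -0.02. No test between these groups of neighbours was made, and their levels were not matched to those of the clustered Zfp-named genes.

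**Figure D3:**
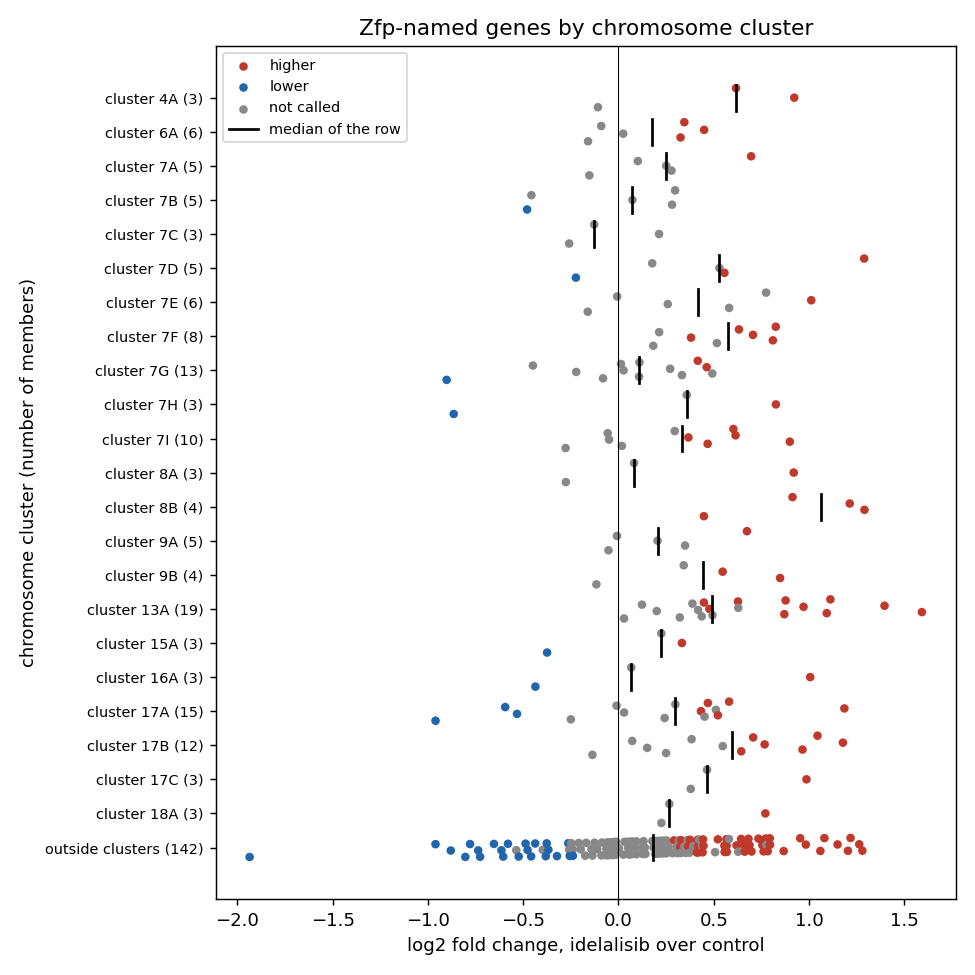
Log2 fold change, idelalisib over control, of each Zfp-named gene by chromosome cluster (rows, with the number of genes in parentheses) and outside clusters in the lowest row. All genes of 13A and of 8B lie above 0, while 17A holds higher and lower genes.

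Cluster 13A, at chr13:67038596-67827002, was the largest, with 19 of its 23 Zfp-named genes above the threshold. All 19 had a log2 fold change above 0, from 0.03 to 1.59, and 10 were higher and 0 lower by edgeR, by DESeq2 or at an unadjusted p under 0.05. Fits that left out 1 library gave 7 to 11 higher genes, with 18 or 19 above 0. Shared words or an opposite-strand overlap made 9 of the 19 uncertain. The summed level of the 19 genes was 166.4, 184.7 and 151.9 CPM in idelalisib libraries, against 122.2, 119.9 and 106.4 CPM in control libraries. The groups did not overlap. Of the 10, Zfp759, Zfp455 and Zfp458 averaged below 2 CPM in controls and so met the threshold through the idelalisib group alone. Zfp759, a gene of 19 fingers, had the largest fitted rise, from such a low control level. Its level was 4.41, 4.25 and 3.17 CPM with idelalisib and 1.56, 1.65 and 0.643 CPM in controls, log2 fold change 1.59 (SE 0.33, edgeR adjusted p = 0.00131). Zfp953 was at 7.37, 7.36 and 6.63 CPM with idelalisib, against 2.75, 3.04 and 2.29 CPM in controls (1.40, SE 0.20, edgeR adjusted p = 9.98e-05). The smallest difference in 13A was that of Zfp429, at 0.03 (edgeR adjusted p = 0.884), a gene uncertain through shared words. The gene of highest level there, Zfp729a, was at 22.97, 27.12 and 19.77 CPM with idelalisib and 18.52, 19.49 and 13.01 CPM in controls (0.45, SE 0.16, edgeR adjusted p = 0.0347), so that its groups were barely apart. Without control replicate 1, control replicate 3, idelalisib replicate 1 or idelalisib replicate 2 in turn, its adjusted p was 0.0528, 0.166, 0.0764 or 0.0735. Over the whole of chromosome 13, 28 of 29 genes were above 0 on the log2 scale. The exception was Zfp131, which lies outside the cluster.

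In cluster 8B, at chr8:71882019-71993792, all 4 Zfp-named genes passed the threshold and all 4 were higher, with no other tested protein-coding gene at 2 CPM or more between them. The summed level was 38.8, 41.4 and 37.9 CPM with idelalisib, against 21.1, 20.6 and 22.5 CPM in controls. Zfp709 was at 7.57, 6.80 and 8.66 CPM with idelalisib and 2.63, 3.30 and 3.50 CPM in controls, log2 fold change 1.29 (SE 0.20, edgeR adjusted p = 0.000184). Zfp961 was at 13.9, 17.9 and 11.8 CPM with idelalisib, against 6.26, 6.21 and 6.29 CPM in controls (1.21, SE 0.17, edgeR adjusted p = 8.46e-05), and is uncertain because 4.2% of its exon bases overlap Cyp4f18 on the opposite strand. Both kept their call in every fit run. Zfp882 was at 2.04, 2.90 and 3.40 CPM with idelalisib and 1.75, 1.65 and 1.00 CPM in controls (0.91, SE 0.32, edgeR adjusted p = 0.0307), and it met the threshold through the idelalisib group alone. Its call was lost without control replicate 2, control replicate 3 or idelalisib replicate 3, at an adjusted p of 0.0532, 0.122 or 0.106. Zfp617 was at 15.34, 13.74 and 14.04 CPM with idelalisib, against 10.4, 9.45 and 11.7 CPM in controls (0.45, SE 0.14, edgeR adjusted p = 0.0186), and 42.2% of its words are shared. It was lost without control replicate 1, control replicate 2 or idelalisib replicate 1, at 0.0680, 0.0902 or 0.0624, so that 2 of the 4 genes were left without control replicate 2.

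The 300 bases around the start of Zfp709 and of Zfp961 are shown because both genes rose by over 1 on the log2 scale in one cluster. They are RefSeq promoters of build GRCm38.p6 on the plus strand, from 250 bases before the start to 50 after it, at chr8:71881818-71882117 and chr8:71950816-71951115. Capitals mark CCGGAAG or its reverse complement, the only form counted here as the core of the ETS family of transcription factors. Sites of that family with other letters were not counted or marked.
Zfp709: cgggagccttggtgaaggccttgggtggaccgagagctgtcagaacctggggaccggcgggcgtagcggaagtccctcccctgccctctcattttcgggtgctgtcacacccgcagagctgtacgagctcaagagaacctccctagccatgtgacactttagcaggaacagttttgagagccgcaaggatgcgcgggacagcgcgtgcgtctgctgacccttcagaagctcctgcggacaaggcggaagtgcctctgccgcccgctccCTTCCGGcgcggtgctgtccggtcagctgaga
Zfp961: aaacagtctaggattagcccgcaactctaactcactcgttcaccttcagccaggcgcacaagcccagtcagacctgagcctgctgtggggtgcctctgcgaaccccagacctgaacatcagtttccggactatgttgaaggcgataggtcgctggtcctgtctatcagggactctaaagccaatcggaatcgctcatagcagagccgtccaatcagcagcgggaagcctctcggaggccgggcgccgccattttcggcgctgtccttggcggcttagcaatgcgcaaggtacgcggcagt
Zfp709 had 1 match to this form and 23 CG dinucleotides in this window, and Zfp961 had no match and 21 CG dinucleotides. Of the 283 genes, 237 matched a RefSeq promoter by symbol and chromosome. The ETS core, searched on both strands, was in 21.9% of these promoters and in 9.08% of 27025 promoters, 1 for each gene. The 2 sets are unlike, since the 237 belong to expressed protein-coding genes and the 27025 were not chosen by expression. Among several promoters of a gene, the 237 are those nearest the gene start and the 27025 those of lowest coordinate. The ETS core was in 26.2% of the 80 promoters of higher genes, 34.6% of the 26 of lower genes and 16.8% of the 131 of genes not called. The NRF1 consensus, also on both strands, was in 7.17% of the 237 promoters against 4.68% of all, and the E2F motif, TTTGGCGC or TTTCGCGC, in 2.11% against 0.836%. The TATA box, TATAAA, was in 5.49% against 14.1% of all, and the core of the interferon-stimulated response element in 1.27% against 3.52%. The median number of CG dinucleotides was 15 in the 237 promoters, against 7 over all. These are matches of letters, and whether a factor binds there was not measured.

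In cluster 17A, at chr17:21383748-22456689, neighbours changed in opposite directions. Of its 15 genes, all with the KRAB-like pattern, 5 were higher and 3 lower, and 3 were higher without control replicate 2. In the order along the chromosome, Zfp51 fell (log2 fold change -0.53), Zfp53 rose (0.47), Zfp52 fell (-0.96), Zfp948 fell (-0.59), Zfp983 rose (0.58) and Zfp760 rose (1.19). Each of these 6 calls held in the main test, and the edgeR adjusted p of Zfp983, 0.00336, was the highest of them. Zfp52 was by far the most abundant, at 89.0, 91.9 and 81.5 CPM with idelalisib and 163.0, 171.0 and 176.6 CPM in controls (SE 0.08, edgeR adjusted p = 8.86e-07). That is a level 1.95-fold lower, and 0.3% of its exon bases overlap a gene on the opposite strand. Zfp760 was at 13.1, 13.1 and 14.5 CPM with idelalisib, against 6.44, 5.55 and 5.86 CPM in controls (SE 0.15, edgeR adjusted p = 3.34e-05). For both genes the groups lay well apart, on opposite sides. The summed level of the 15 genes, 284.9, 306.7 and 271.6 CPM with idelalisib and 339.9, 352.2 and 358.2 CPM in controls, was lower in every idelalisib library. Zfp52, the most abundant, weighed most in that sum, so it does not stand for the other genes. The median log2 fold change of the 15 genes was 0.30, with 10 genes above 0 and 5 below.

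**Figure D4:**
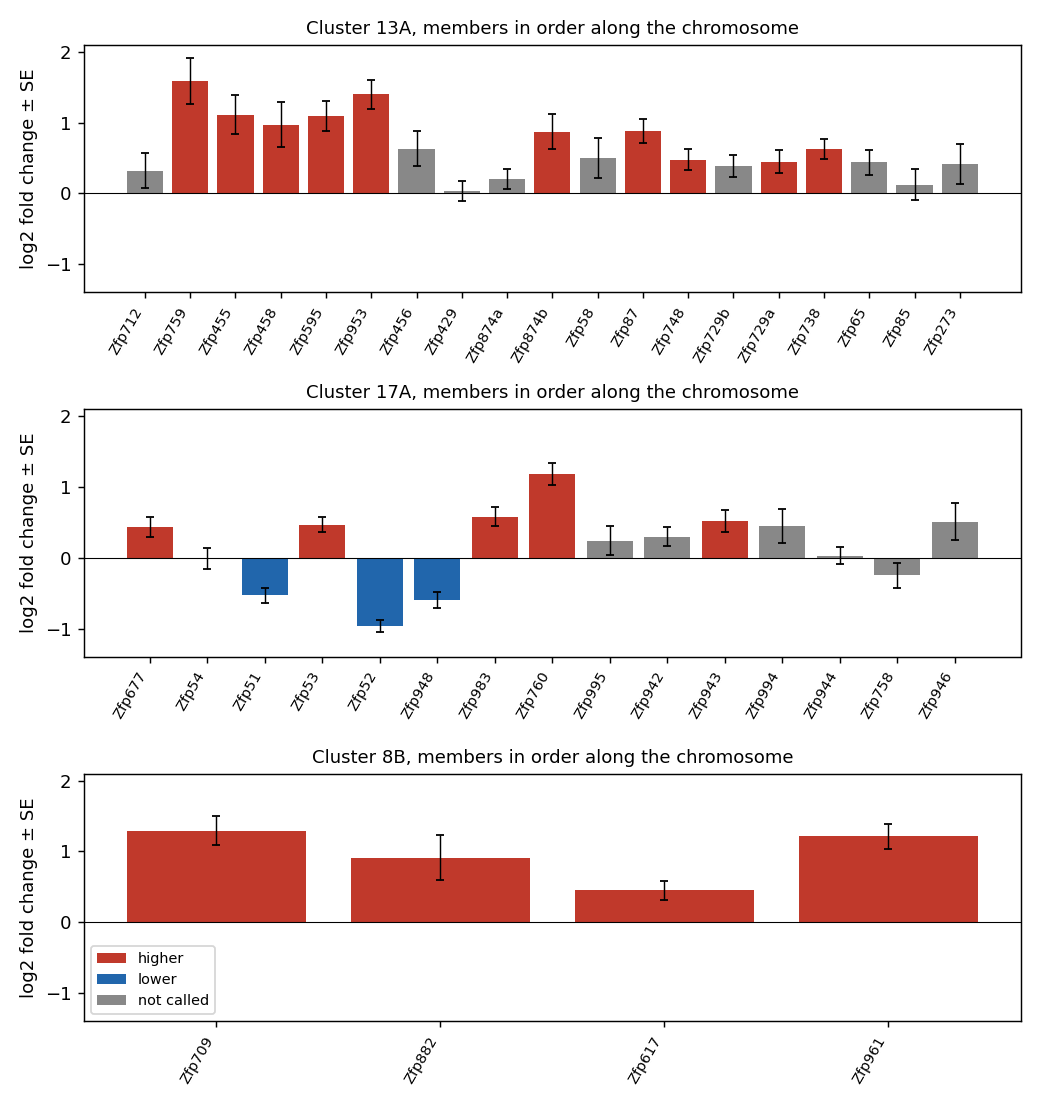
Log2 fold change ± SE, idelalisib over control, of the genes of clusters 13A, 17A and 8B in order along the chromosome (bars; red higher, blue lower, grey not called). All 19 bars of 13A and all 4 of 8B point upward, while in 17A the bars of Zfp51, Zfp52 and Zfp948 point downward beside those of Zfp53, Zfp983 and Zfp760.

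Other clusters ranged between these cases. In 17B, at chr17:32771236-33631779, 6 of 12 genes were higher and 0 lower by edgeR, by DESeq2 or at an unadjusted p under 0.05, with a median log2 fold change of 0.60. The largest rise there was that of Zfp799 (1.18, SE 0.16, edgeR adjusted p = 5.40e-05), uncertain through an opposite-strand overlap. The most abundant gene, Zfp871, was at 99.9, 90.6 and 58.6 CPM with idelalisib and 92.3, 88.0 and 93.4 CPM in controls, with overlapping groups (-0.14, edgeR adjusted p = 0.533). In 7F, at chr7:27689340-28014115, all 8 genes were above 0 and 5 were higher, or 3 without idelalisib replicate 1. Its largest rise was that of Zfp974 (0.83, SE 0.18, edgeR adjusted p = 0.00180), uncertain through an overlap. In 7I, at chr7:127233061-127885996, 5 of 10 genes were higher, led by Zfp689 (0.90, SE 0.22, edgeR adjusted p = 0.00452; uncertain), while 5 of its 15 other genes were higher and 5 lower. In 7G, 2 of 13 genes were higher and Zfp383 was lower, at 3.75, 3.47 and 3.76 CPM with idelalisib and 6.69, 7.99 and 5.86 CPM in controls (-0.90, SE 0.20, edgeR adjusted p = 0.00227). The 2 higher calls, Zfp74 and Zfp27 (both uncertain through an overlap), were both lost without control replicate 3 or idelalisib replicate 1. In 7H, Zfp715 fell to 24.49, 35.05 and 22.16 CPM with idelalisib, against 50.8, 45.2 and 52.5 CPM in controls (-0.87, SE 0.15, edgeR adjusted p = 0.000413), and Zfp719 rose (0.83, SE 0.20, edgeR adjusted p = 0.00432), another case of neighbours on opposite sides. The other 14 clusters held 3 to 6 genes each, and their medians ranged from -0.13 in 7C to 0.62 in 4A.

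**Figure D5:**
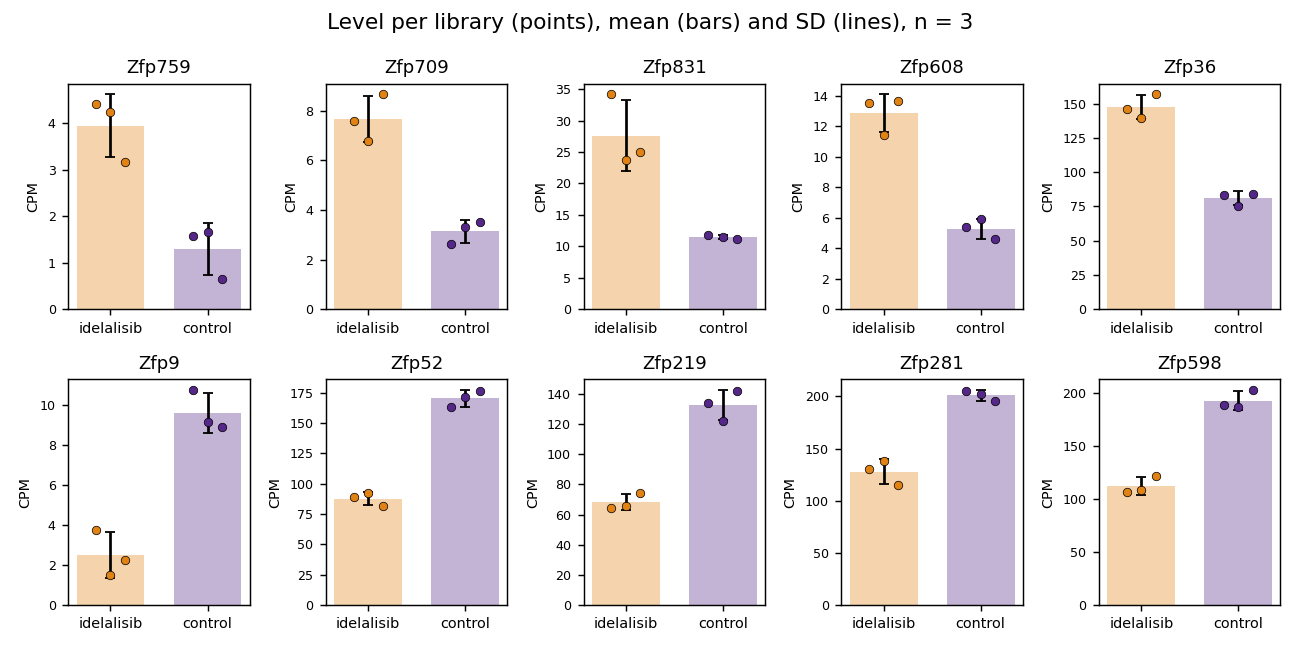
Level in CPM of 10 named genes in each library (points), with the mean (bars) and SD (lines) of 3 idelalisib and 3 control libraries. In all 10 panels the points of the groups do not overlap: the upper row rose with idelalisib and the lower row fell.

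Zfp831 and Zfp608 lie outside clusters and were among the 10 largest rises. Zfp831, reported in mouse CD4+ T cells to favour follicular helper differentiation, was at 34.16, 23.72 and 24.96 CPM with idelalisib and 11.8, 11.5 and 11.2 CPM in controls (1.26, SE 0.15, edgeR adjusted p = 1.43e-05). Zfp608, which restrains recombination-activating gene expression in mouse thymocytes, was at 13.5, 11.4 and 13.6 CPM with idelalisib, against 5.38, 5.88 and 4.57 CPM in controls (1.28, SE 0.17, edgeR adjusted p = 3.82e-05), and 0.9% of its exon bases overlap another gene. Its relative Zfp609 stood at 143, 155 and 137 CPM with idelalisib and 146, 150 and 139 CPM in controls, a log2 fold change of 0.00 (edgeR adjusted p = 0.985). The groups of Zfp608 were far apart, while those of Zfp609 overlapped. The rest of the 10 largest rises were those of Zfp324 (1.29, in cluster 7D), Zfp808 (1.22, uncertain with 28.2% shared words) and Zfp518b (1.20), beside the genes given above. All 10 kept their call in every fit run.

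Zfp36, or tristetraprolin, binds AU-rich elements in mRNAs of cytokines through CCCH fingers and speeds their decay. It was at 146.4, 139.8 and 156.9 CPM with idelalisib and 83.2, 75.3 and 84.4 CPM in controls, log2 fold change 0.87 (SE 0.08, edgeR adjusted p = 2.98e-06), with 3.6% of exon bases in an opposite-strand overlap. Idelalisib libraries were all above controls. Per kb of gene model it had the highest level of the 283 genes with idelalisib, at 42.6 CPM per kb, against 23.3 CPM per kb in controls. Of the 10 genes listed for CCCH and Roquin-type mRNA decay, 3 were higher, Zfp36 among them, and 2 lower. Zc3h12d, of the Regnase family, rose (0.87, SE 0.08, edgeR adjusted p = 1.67e-06) and the decay factor Zfp36l1 rose (0.56, SE 0.10, edgeR adjusted p = 0.000557). The Roquin paralogue Rc3h2 fell (-0.56, SE 0.12, edgeR adjusted p = 0.00157) and Zfp36l2 fell (-0.28, SE 0.07, edgeR adjusted p = 0.00588).

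The largest fall was that of Zfp9, a gene of 12 fingers with the KRAB-like pattern. Its level was 3.75, 1.49 and 2.27 CPM with idelalisib and 10.8, 9.18 and 8.94 CPM in controls, which is 3.83-fold lower (log2 fold change -1.94, SE 0.26, edgeR adjusted p = 5.35e-05). It was the 1 gene that fell by over 1 on the log2 scale. Zfp219 was at 64.6, 65.6 and 74.1 CPM with idelalisib, against 133.8, 121.9 and 142.0 CPM in controls (-0.96, SE 0.09, edgeR adjusted p = 2.19e-06), uncertain through an overlap of 5.9% of its exon bases with Tmem253. In both genes the highest idelalisib library was below the lowest control library. Zfp395 fell to 80.6, 48.4 and 73.2 CPM with idelalisib, against 144, 118 and 110 CPM in controls (-0.88, SE 0.19, edgeR adjusted p = 0.00526). Its adjusted p was 0.0533 without idelalisib replicate 3.

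The falls also included more abundant genes. Zfp598, a ubiquitin ligase that recognises collided ribosomes, was at 106.4, 108.8 and 121.5 CPM with idelalisib and 189.0, 186.5 and 202.7 CPM in controls (-0.78, SE 0.08, edgeR adjusted p = 6.29e-06). Per kb of gene model it had the highest level of the 283 genes in controls, at 34.2 CPM per kb with idelalisib and 58.7 CPM per kb in controls. Zfp622, whose human counterpart takes part in the maturation of the large ribosomal subunit, fell as well (-0.73, SE 0.08, edgeR adjusted p = 1.17e-05). Zfp451, whose human counterpart is a SUMO ligase, fell by 0.80 on the log2 scale (SE 0.11, edgeR adjusted p = 4.60e-05). The transcription factor Zfp281 was at 130.6, 138.1 and 114.6 CPM with idelalisib and 205.0, 202.6 and 195.3 CPM in controls (-0.65, SE 0.08, edgeR adjusted p = 3.72e-05). For both Zfp598 and Zfp281 the highest idelalisib library was well below the lowest control library. Zfp296 was also among the 10 largest falls (-0.74, SE 0.19, edgeR adjusted p = 0.00538; uncertain, with 12.9% of its exon bases overlapping Gemin7).

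The 3 genes of highest mean level were not called. Zfp106, an RNA-binding protein, was at 261, 284 and 246 CPM with idelalisib and 264, 268 and 275 CPM in controls (-0.03, edgeR adjusted p = 0.790), and is uncertain with 24.7% shared words. Zfp207, or BuGZ, a spindle assembly protein, had a log2 fold change of -0.14 (edgeR adjusted p = 0.178), or -0.21 with an adjusted p of 0.0216 without idelalisib replicate 2. Zfp292 was at -0.25 (edgeR adjusted p = 0.0870), or -0.38 with an adjusted p of 0.000481 without the same library. The groups overlapped in all 3 genes. Zfp445, which with Zfp57 maintains genomic imprints in the mouse, was at 180, 182 and 148 CPM with idelalisib and 125, 137 and 133 CPM in controls (0.37, SE 0.09, edgeR adjusted p = 0.00500). Zfp57 was below the threshold.

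Other genes of known function varied in direction. Zfp683, or Hobit, a factor of tissue-resident memory T cells, was at 5.79, 3.04 and 5.20 CPM with idelalisib and 5.26, 5.28 and 4.43 CPM in controls (-0.09, edgeR adjusted p = 0.784). Zfp335, needed for late thymocyte maturation in the mouse, fell by 0.37 on the log2 scale (SE 0.09, edgeR adjusted p = 0.00373), with 23.3% of its exon bases overlapping Pcif1, and its adjusted p was 0.0544 with library size alone. Zfp131 fell by 0.38 on the log2 scale (SE 0.10, edgeR adjusted p = 0.00866), or 0.0565 as adjusted p without idelalisib replicate 1 and 0.0898 with library size alone. Zfp318, which permits IgD expression in B cells, stood at 40.4, 74.0 and 41.0 CPM with idelalisib and 49.5, 44.5 and 55.8 CPM in controls (0.05, edgeR adjusted p = 0.889). Without idelalisib replicate 2, the library with the high value, Zfp318 was at -0.29 with an adjusted p of 0.0229. Zfp706 rose (0.80, SE 0.09, edgeR adjusted p = 1.62e-05; uncertain) and Zfp217, a partner of corepressor complexes, rose (0.44, SE 0.08, edgeR adjusted p = 0.000725).

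Genes whose calls sat near the threshold moved with single libraries. Zfp809, which silences murine leukaemia viruses in mouse embryonic stem cells, was at 28.6, 26.6 and 20.7 CPM with idelalisib and 18.1, 21.3 and 20.3 CPM in controls (0.34, edgeR adjusted p = 0.0510), or 0.00545 as adjusted p without idelalisib replicate 3. Zfp568, which represses a placental transcript of Igf2 in the mouse, was not called (0.27, edgeR adjusted p = 0.140). The ubiquitin ligase Zfp91 (0.09, edgeR adjusted p = 0.510) was not called either. Zfp148 (0.19, edgeR adjusted p = 0.137) had an adjusted p of 0.0202 without idelalisib replicate 3. Zfp110, an interactor of the neurotrophin receptor p75, was called lower (-0.22, edgeR adjusted p = 0.0483), but not when any 1 library was left out, with adjusted p of 0.0527 to 0.174. Zfp142 (0.33, edgeR adjusted p = 0.0123; uncertain) was not called without control replicate 3, at 0.0739. Zfp346, which binds double-stranded RNA, was called higher (0.42, edgeR adjusted p = 0.0250; uncertain), and lost its call without control replicate 1, control replicate 2 or idelalisib replicate 3, at 0.133, 0.0978 or 0.0716. Zfp652 (0.26, uncertain through an overlap), Zfp35 (0.23), Zfp326 (0.22) and Zfp64 (0.12) were not called. Of the 129 called genes, 83 kept their call in all 6 fits that left out 1 library, and 80 kept it in all 15 other fits. None of the 129 changed direction with a call in another fit.

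The cofactors that KRAB zinc finger proteins act through were measured in the same libraries. Of 25 genes listed for the KRAB corepressor and methylation of histone H3 at lysine 9, 11 were higher (44.0%) and 2 lower (8.0%). The shares over all genes tested were 22.2% and 22.4%. The median log2 fold change of the 25 genes was 0.09. Trim28, the corepressor itself, was at 361, 397 and 426 CPM with idelalisib and 426, 432 and 454 CPM in controls (-0.15, edgeR adjusted p = 0.158). Setdb1 was at 95.0, 124 and 86.5 CPM with idelalisib and 128, 112 and 142 CPM in controls (-0.32, edgeR adjusted p = 0.0564). Neither passed the test. Resf1, a regulator of retrotransposon silencing, rose (0.87, SE 0.09, edgeR adjusted p = 6.28e-06) and so did Cbx5, a reader of methylated lysine 9 (0.74, SE 0.09, edgeR adjusted p = 1.81e-05). Ehmt1 (-0.42, SE 0.08, edgeR adjusted p = 0.00109) and Trim24 (-0.24, SE 0.09, edgeR adjusted p = 0.0431) fell.

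Markers of cell types were set beside these results. The shares over all genes tested were 22.2% higher and 22.4% lower. All 12 T cell markers were tested, 2 of them higher (16.7%) and 1 lower (8.33%). They summed to 4580 to 5070 CPM with idelalisib and 4410 to 4620 CPM in controls. Of 14 B cell markers 9 were tested and 7 of these were higher (77.8%). The list summed to 32.6 to 42.5 CPM with idelalisib and 24.0 to 24.4 CPM in controls. Of 8 granulocyte markers 3 were tested and 2, Ly6g and Cxcr2, were higher, and the list summed to 126 to 158 CPM with idelalisib and 46.0 to 48.1 CPM in controls. Lists of 5 other cell types (CD8 T cells, natural killer cells, dendritic cells, monocytes and macrophages, erythroid cells) and of stroma and endothelium had 2 to 4 genes tested and at most 1 higher and 1 lower each. Their summed levels stayed at or below 117 CPM in every library. Ncr1 of natural killer cells, Siglech of dendritic cells, C1qa and C1qc of macrophages and Cdh5 of endothelium were at 0 counts in all libraries. The part of these markers in the changes of the zinc finger genes was not tested.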

How the data were processed

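RNA was extracted with Trizol and poly(A) RNA was sequenced, per the labels. The authors deposited raw counts of reads for each gene, with 1 column per library. Every column of per-sample values was matched to a library by name. Reads were processed with fastp, HISAT2 2.0.5 and featureCounts 1.5.0-p3 on mouse build mm10, per the submitters' processing notes. The sources used here do not give the strand setting, the handling of multi-mapping reads or the annotation release.

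Counts were filtered with filterByExpr (minimum count 10, minimum total 15), which left 14530 genes, all 283 Zfp-named genes included. They were scaled with TMM factors (1.046 to 1.062 with idelalisib, 0.942 to 0.955 in controls) and compared by group alone with the robust quasi-likelihood test of edgeR 4.0.16 (R 4.3.3). P-values were adjusted by the Benjamini-Hochberg method over all 14530 genes, and fold changes are idelalisib over control. The threshold of 2 CPM used plain library totals. Levels per library and their means and SDs use TMM-scaled totals, and levels per kb divide these by the gene length of the deposited table. Replicates of a group differed beyond sampling noise, so none were duplicates (chi-square per degree of freedom 4.63 to 18.15). The edgeR fit alone was tested on simulated counts.

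GENCODE M21 (99.8% of the identifiers in the table) gave coding sequences, transcripts and overlaps. A finger was counted as 2 cysteines 2 residues apart, then 12 residues, then 2 histidines 3 to 5 residues apart. The cut of 7 of 9 KRAB positions was set after the scores were seen. Promoters are from RefSeq (GRCm38.p6). Genes were named by rule: the 10 largest called rises and the 10 largest called falls without overlap of groups, the 8 highest levels, the extreme and the most abundant gene of each cluster, genes called against their cluster's direction, the 3 on either side of the threshold and 25 genes of known interest. Of the cluster genes, those of the largest clusters (13A, 17A, 7G, 17B, 7I and 7F) are given. Clusters 8B and 7H, of 4 and 3 genes, were described with their values known and not for their size. Zfp455, Zfp719, Zfp74 and Zfp27, the 9 genes without a counted finger and the neighbours in 17A were named after their values were seen. The genes and lists were chosen with earlier results of these data known. Alternatives were other scalings, DESeq2 1.42.0, limma-voom (limma 3.58.1), other filters and thresholds, a replicate block and fits without each library in turn.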

Additional observations from a re-analysis of the deposited data

How the results depend on the processing

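Of 194 counts and medians recomputed under other settings, 17 moved by over 1.5 times or by more than the spread between libraries. No recomputed median changed sign, and a count has no direction that could change. The 194 do not include the level bins, where the median at 50 CPM or more was 0.02 with library size alone, against -0.14 with TMM. At an adjusted p under 0.01, 63 genes were higher, 31 of them in clusters, and the count of all genes higher was 2138. At a log2 fold change of at least 0.5, 17 genes were lower, 5 in clusters and 12 outside, while the count of all genes higher was 2142 and that of all genes lower was 1946. With library size alone, 147 were higher and 21 lower (67 and 14 outside clusters), with a median of 0.42. Without genes of shared words or opposite-strand overlap, 60 were higher (35 in clusters, 25 outside) and 14 outside clusters were lower. Stricter thresholds and smaller sets hold fewer genes by construction, and for the scaling the cause was not tested. Leaving out 1 library in turn gave 73 to 101 higher and 25 to 37 lower genes, with a median of 0.25 to 0.32. Clustered genes were then 38 to 56 higher and 7 to 10 lower, genes outside clusters 33 to 45 higher and 18 to 27 lower, and all genes 2472 to 3599 higher and 2617 to 3581 lower. A fit with the replicate number as a block gave 90 higher and 30 lower genes and ended 9 calls, among them those of Zfp882 (adjusted p = 0.0565), Zfp110 and Zfp27. The numbers did not pair the samples, since same-numbered libraries correlated at 0.076, -0.132 and -0.101 in their deviations and idelalisib replicate 2 correlated best with control replicate 3 (0.193). A count of fingers in RefSeq proteins was not run and translated GENCODE sequences stood in for it, chosen, like the set at 2 CPM in both groups, after seeing the data. Depth limits the genes at 2 to 5 CPM most, where 1 CPM is 13.4 to 16.8 reads.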

Other observations

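Genes of other zinc finger families were measured in the same fit. Of 37 Zbtb-named genes tested, whose proteins join a BTB domain to C2H2 fingers, 8 were higher (21.6%) and 14 lower (37.8%) with idelalisib. Their median log2 fold change was -0.13, and 22.2% of all genes tested were higher and 22.4% lower. Zbtb38, a reader of methylated DNA, was at 74.6, 83.4 and 61.5 CPM with idelalisib and 154, 141 and 174 CPM in controls (-1.10, SE 0.11, edgeR adjusted p = 5.38e-06). Zbtb3 was at 2.63, 2.41 and 2.69 CPM with idelalisib and 1.38, 1.52 and 1.07 CPM in controls (0.95, SE 0.29, edgeR adjusted p = 0.0161). Of 17 Zscan- and Zkscan-named genes, which carry a SCAN domain, 4 were higher (23.5%) and 5 lower (29.4%), with a median of -0.05. Zkscan7 was at 8.62, 6.30 and 6.33 CPM with idelalisib and 3.00, 1.59 and 1.93 CPM in controls (1.69, SE 0.26, edgeR adjusted p = 0.000137). Zkscan8 was at 23.2, 23.6 and 19.2 CPM with idelalisib and 8.20, 10.4 and 9.22 CPM in controls (1.24, SE 0.14, edgeR adjusted p = 1.29e-05). These families were not tested against the Zfp-named genes. Of the Zfp-named genes below 2 CPM, 32 were tested, 5 of them higher and 0 lower by edgeR, by DESeq2 or at an unadjusted p under 0.05, with a median of 0.40.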
